A study of Mus musculus with 8 samples.

Results

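The genes described here are 9 markers of lymphocytes and of their activity: Cd3e, Cd3g, Cd4, Cd8a, Cd8b1, Cd79b, Gzmb, Ptprc and Cd52. They were chosen by name, and every array probe whose annotated transcript belongs to one of them was taken. This gave 11 probes, with 2 each for Cd4 and Cd8a, among 39429 probes and 19751 named genes in all. Hippocampal RNA of wild-type C57BL/6J mice was measured on 1-colour microarrays at 3 months (3M, n = 4 arrays) and 29 months of age (29M, n = 4 arrays), in a cohort separate from the study's sequencing experiment. All mice were untreated and stayed in the home cage, the 29M mice had been bought aged, and the tissue was the whole hippocampus dissected by hand. The labels do not give the sex of the mice, and the methods mention perfusion only for immunostaining, so residual blood in the RNA samples cannot be judged from them. Nothing in the labels says whether arrays of 1 group were separate animals, and p-values measure the spread between these samples.

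T cells recognise antigen through a receptor whose signal is passed on by the CD3 chains. The co-receptor CD4 marks helper T cells and the co-receptor CD8, a pair of CD8A and CD8B or of CD8A chains, marks cytotoxic T cells, which kill through perforin and granzymes. B cells signal through CD79A and CD79B, which sit beside the membrane antibody. The healthy brain holds few lymphocytes, most of them at its borders, whereas microglia, the resident macrophages, are plentiful. CD45, the product of Ptprc, is carried by all nucleated blood cells and by microglia, and CD52 by lymphocytes and other leukocytes, so these 2 genes do not mark lymphocytes alone.

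The Cd8a promoter is shown because Cd8a was the member that rose with age, and the 3 neighbouring CD3 promoters because 1 of them, that of Cd3d, belongs to a gene that rose beside it. RefSeq promoters (GRCm38.p6, 250 bases before to 50 after the annotated start) were matched for 5 of the 9 members. Each sequence reads 5′ to 3′ in the direction of its gene, with capitals for any motif match on either strand. The letters searched for RUNX factors were TGTGGT. For factors of the ETS family they were GGAAGT. For GATA factors the search letters were AGATAA. An E-box, bound by E-proteins among others, was searched as CACCTG.
Cd8a: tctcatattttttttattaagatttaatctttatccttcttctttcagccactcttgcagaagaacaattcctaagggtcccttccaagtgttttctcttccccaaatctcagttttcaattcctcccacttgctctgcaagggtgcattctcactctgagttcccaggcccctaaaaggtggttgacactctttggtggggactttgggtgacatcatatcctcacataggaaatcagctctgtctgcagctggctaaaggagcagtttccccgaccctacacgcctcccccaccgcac
Cd3d: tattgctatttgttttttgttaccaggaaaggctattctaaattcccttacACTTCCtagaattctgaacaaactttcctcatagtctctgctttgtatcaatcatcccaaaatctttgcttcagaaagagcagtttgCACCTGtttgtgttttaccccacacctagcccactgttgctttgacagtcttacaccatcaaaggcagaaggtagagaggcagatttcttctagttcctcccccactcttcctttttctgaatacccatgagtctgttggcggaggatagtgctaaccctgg
Cd3g: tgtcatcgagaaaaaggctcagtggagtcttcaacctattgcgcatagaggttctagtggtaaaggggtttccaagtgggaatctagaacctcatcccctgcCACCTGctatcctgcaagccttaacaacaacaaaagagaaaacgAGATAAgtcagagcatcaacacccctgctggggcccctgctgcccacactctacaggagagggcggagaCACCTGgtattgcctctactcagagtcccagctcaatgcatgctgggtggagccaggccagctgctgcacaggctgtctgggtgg
Cd3e: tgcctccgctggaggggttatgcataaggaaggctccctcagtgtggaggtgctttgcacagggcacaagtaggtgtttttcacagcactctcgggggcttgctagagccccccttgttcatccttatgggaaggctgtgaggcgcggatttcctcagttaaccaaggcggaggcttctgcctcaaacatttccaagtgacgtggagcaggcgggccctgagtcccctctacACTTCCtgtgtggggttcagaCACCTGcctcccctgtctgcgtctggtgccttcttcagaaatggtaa
They lie at chr6:71373177-71373476 (plus strand, Cd8a), chr9:44981536-44981835 (plus, Cd3d), chr9:44980382-44980681 (minus, Cd3g) and chr9:45009562-45009861 (minus, Cd3e). The annotated starts of Cd3g and Cd3d were 1355 bases apart and those genes point away from each other, while the start of Cd3e lay 27825 bases from that of Cd3d. The Cd8a window held no match to the 4 motifs. The Cd3d window held 1 ETS and 1 E-box match, the Cd3g window 1 GATA and 2 E-box matches, and the Cd3e window 1 ETS and 1 E-box match. No motif overlapped another here. Among 32851 promoters of the same length, 16.8% held the RUNX letters, 23.8% the ETS letters, 11.2% the GATA letters and 20.2% the E-box letters. In RefSeq, Cd8b1, whose product pairs with that of Cd8a, is the protein-coding gene next to it on chromosome 6.

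Intensities were put on a common scale by variance stabilising normalization and are given as normalized log2 intensity, on which a difference of 1 is a 2-fold change for bright probes and understates the change of dim ones. Calls needed a log2 change of at least 0.5 in either direction together with an adjusted p below 0.1 (limma, Benjamini-Hochberg over all probes tested). Levels of different probes cannot be set against each other. In RNA from bulk tissue, fewer cells of a type and less RNA per cell cannot be told apart. The 8 arrays correlated at 0.991 to 0.998 across probes, 76.2% to 85.0% of spots were well above background, and none were saturated. Replicate 1 of 3M had the lowest of these shares, and no other array carried the scanner software's mark for evaluation. It stood apart from the other 3M arrays in several members (below, each with and without it), and it shared its slide with replicates 3 and 4 of 29M. All 10 genes of a hippocampal neuron list were above background on all 4 arrays of at least 1 group, and none of them was called (1 was lower at an unadjusted p under 0.05 in limma).

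Of the 9 members, 1 was called higher in 29M (Cd8a) and 0 lower, where 364 of 19742 genes (1.84%) were called higher and 0.892% lower. At an unadjusted p under 0.05 in limma, 2 members were higher (Cd8a and Ptprc) and 0 lower. The share of all genes passing at that p was not counted, so such counts here have no array-wide rate beside them. By probe, 1 of the 11 was called higher and 0 lower, against 1.25% and 0.809% of all probes. By sign 5 members were higher and 4 lower, with a median log2 change of 0.07 against 0.01 over all genes. Without replicate 1 of 3M, 3 members were called higher (Cd8a, Ptprc and Cd52) and 0 lower, against 3.03% of genes higher and 1.75% lower in that fit. Of the 11 probes, 9 were above background on all 8 arrays, which covers 8 of the 9 genes, and the exception was Cd3g. The groups did not overlap for 2 probes (Cd8a and Cd3g, both with 29M above), where 5.53% of all probes had 29M entirely above and 5.51% entirely below.

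**Figure D1:**
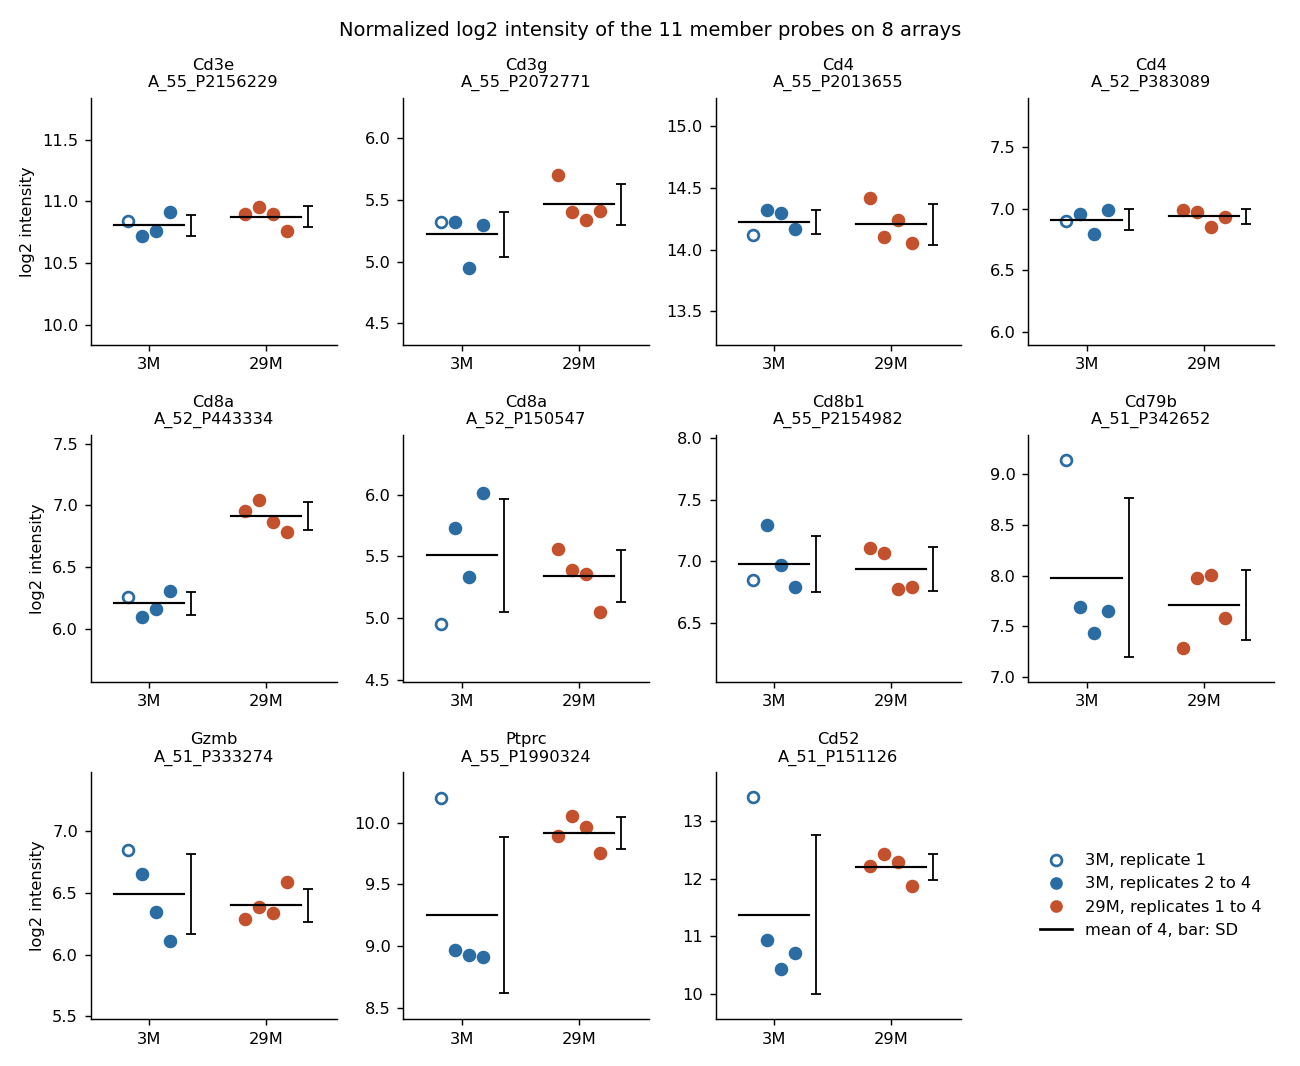
Normalized log2 intensity (vertical axes, each panel with its own range) of the 11 probes in 3M and 29M, 1 point per array, with the mean of 4 as a line and the SD as a bar. The 4 values of the replicated Cd8a probe in 29M (6.79 to 7.05) lay above all 4 in 3M (6.09 to 6.31), and the open point, replicate 1 of 3M, was the highest of 8 for Cd79b, Gzmb, Ptprc and Cd52.

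The CD8 co-receptor gave the 1 call. Cd8a, the chain found in all forms of CD8, has a probe printed in 10 spots per array (A_52_P443334). Its normalized log2 intensity was 6.26, 6.09, 6.16 and 6.31 in replicates 1 to 4 of 3M and 6.96, 7.05, 6.87 and 6.79 in those of 29M. Every 29M array was above every 3M array, and replicate 1 of 3M was like the others of its group. The mean rose from 6.21 ± 0.10 to 6.91 ± 0.11 (SD, n = 4 each), a log2 change of 0.71 (SE 0.09, adjusted p = 0.00731 in limma) or 1.64-fold. On the linear scale the averaged spot intensity was 82.8 to 87.3 in 3M and 114 to 153 in 29M, before background was taken off. This is a dim probe: 33 of 37 usable spots were well above background in 3M, with all the misses on replicate 1 (5 of its 9 spots were above), and 40 of 40 in 29M.

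The rise of Cd8a passed the threshold under all 19 alternatives run for it, with a log2 change from 0.51 (normexp and quantile normalization) to 1.13 (variance stabilisation of background-subtracted signals). The second value is over 1.5 times that of the reported fit. Within slides the change was 0.57, 0.95 and 0.72, and with slide as a fixed block it was 0.73 (adjusted p = 0.0342). Without replicate 1 of 3M it was 0.73 (adjusted p = 0.00727).

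**Figure D2:**
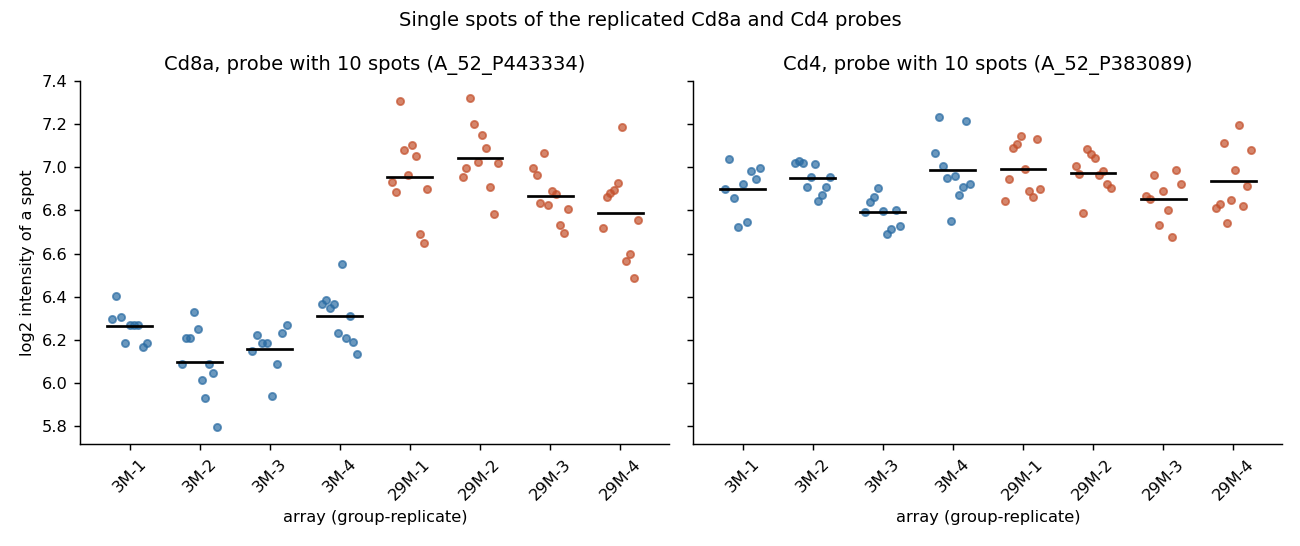
Log2 intensity of the single spots (points) of the Cd8a and Cd4 probes that are printed 10 times, by array, with the array mean as a line; spots of 1 array share its RNA and are not replicates. The Cd8a array means were 6.09 to 6.31 in 3M and 6.79 to 7.05 in 29M, and those of Cd4 were 6.79 to 6.99 and 6.85 to 6.99.

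The other probe of Cd8a did not show this. A_52_P150547, annotated to another RefSeq transcript of the gene, read 4.95, 5.73, 5.34 and 6.01 in 3M and 5.56, 5.39, 5.35 and 5.05 in 29M. It was above background on 2 of 4 arrays in 3M and on 0 of 4 in 29M, and the groups overlapped. Its log2 change was -0.17 (SE 0.21, adjusted p = 0.737), and on no 29M array was this probe well above background. The call of Cd8a rests on the replicated probe alone, since the other had no measured level on most arrays.

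Cd8b1 codes for the chain that pairs with CD8A on most cytotoxic T cells. Its values were 6.85, 7.30, 6.97 and 6.79 in 3M and 7.11, 7.07, 6.77 and 6.80 in 29M, above background throughout. The groups overlapped, with a log2 change of -0.04 (SE 0.13, adjusted p = 0.913). This probe too was dim, with 1 spot per array at 112 to 171 on the linear scale. Over the 8 arrays Cd8b1 and Cd8a correlated at r = -0.13. With 2 dim probes this value cannot show whether the partner chains varied together.

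Among the CD3 chains neither member was called. Cd3e, which carries part of the signalling tail of the receptor, read 10.84, 10.72, 10.76 and 10.91 in 3M and 10.90, 10.95, 10.89 and 10.76 in 29M. These ranges overlapped almost fully, with a log2 change of 0.07 (SE 0.08, adjusted p = 0.721). Cd3g, the gamma chain, was well above background on 0 of 4 arrays in 3M and 1 of 4 in 29M. Its values were 5.32, 5.32, 4.95 and 5.29 in 3M against 5.71, 5.40, 5.33 and 5.41 in 29M. All 29M values were thus above those of 3M, but by 0.24 (SE 0.12, adjusted p = 0.338) and near background, and the size depended on the processing, from -0.07 with values raised to the lowest signal above background to 0.86 with variance stabilisation of background-subtracted signals (adjusted p = 0.250).

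Cd3d, the delta chain and no member, was 1 of the genes to be described by rule. Its values were 6.42, 6.23, 6.28 and 6.21 in 3M and 7.25, 7.39, 7.46 and 6.88 in 29M. It rose by a log2 change of 0.96 (SE 0.13, adjusted p = 0.0103), which is 1.94-fold, with no overlap between groups. The call held under all 19 alternatives (0.73 to 1.32), and within slides the change was 0.75 to 1.16. Of the 3 neighbouring chains on chromosome 9 whose promoters are printed above, Cd3d was called and Cd3e was not, while Cd3g was near background; the difference between their changes was not tested. Cd247, the zeta chain of the same complex, was above background on 1 of 8 arrays and had a log2 change of -0.14.

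Cd4 was not called on either probe. A_55_P2013655 read 14.12, 14.32, 14.30 and 14.16 in 3M and 14.42, 14.11, 14.24 and 14.05 in 29M, a log2 change of -0.02 (SE 0.10, adjusted p = 0.948). The probe with 10 spots, A_52_P383089, read 6.90, 6.95, 6.79 and 6.99 in 3M and 6.99, 6.97, 6.85 and 6.93 in 29M, a log2 change of 0.03 (SE 0.08, adjusted p = 0.890). Its 38 of 38 usable spots in 3M and 39 of 39 in 29M were above background. Both probes showed overlapping groups, and the sign of each small difference turned under some alternatives. Although annotated to the same transcript, they differed widely on the linear scale. Spot intensities were 16114 to 21913.5 for the first and, averaged, 118 to 145 for the second. Why they differed was not tested, nor was whether the bright probe reads Cd4 alone.

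Gzmb, the protease granzyme B of cytotoxic granules, read 6.84, 6.65, 6.35 and 6.11 in 3M and 6.29, 6.39, 6.34 and 6.59 in 29M. The 29M arrays lay inside the range of 3M, with replicate 1 of 3M the highest of all 8. The log2 change was -0.09 (SE 0.15, adjusted p = 0.822), and 0.03 (adjusted p = 0.927) without that replicate. The probe was above background on all arrays but dim, with spot intensities of 77.5 to 122.5 on the linear scale.

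The B cell member was set by 1 array. Cd79b, a signalling chain of the B cell receptor, read 9.14, 7.69, 7.44 and 7.65 in 3M and 7.29, 7.98, 8.01 and 7.58 in 29M. Replicate 1 of 3M was 2.93-fold above the mean of the other 3M arrays, and those 3 lay within the range of 29M. The log2 change was -0.27 (SE 0.35, adjusted p = 0.747) with all arrays and 0.12 (SE 0.18, adjusted p = 0.750) without that replicate. Within slides it was -1.35, 0.29 and -0.26, and the first of these slides holds replicate 1. Cd79a and Ms4a1, B cell genes named by rule, were not called either. Cd79a, the partner chain, changed by 0.17 (adjusted p = 0.721) and was high on replicate 4 of 29M alone, at 7.16 where the other 29M arrays were between 6.19 and 6.33. Ms4a1, which codes for CD20, was above background on 0 of 4 arrays in 3M and 2 of 4 in 29M and changed by 0.14 (adjusted p = 0.732).

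The broad leukocyte members moved together, and replicate 1 of 3M decided their calls. Ptprc, the phosphatase CD45, read 10.20, 8.97, 8.92 and 8.91 in 3M and 9.89, 10.05, 9.97 and 9.75 in 29M. Replicates 2 to 4 of 3M agreed closely and lay below all 29M arrays, while replicate 1 was above them all. With all arrays the log2 change was 0.66 (SE 0.27, adjusted p = 0.247, unadjusted p = 0.0329 in limma), and without replicate 1 it was 0.98 (SE 0.09, adjusted p = 0.00229), or 1.97-fold. Within slides it was -0.34, 1.08 and 0.97, and with slide as a fixed block 0.53 (adjusted p = 0.339).

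Cd52, a small glycoprotein anchored on the surface of leukocytes, read 13.41, 10.93, 10.43 and 10.72 in 3M and 12.22, 12.42, 12.28 and 11.87 in 29M. The arrays fell in nearly the same order as for Ptprc, with larger steps, and replicate 1 of 3M was 6.60-fold above the mean of the other 3M arrays. With all arrays the log2 change was 0.83 (SE 0.56, adjusted p = 0.498), and without replicate 1 it was 1.51 (SE 0.16, adjusted p = 0.00294), or 2.84-fold. Within slides it was -1.34, 1.49 and 1.65, and with slide as a fixed block 0.52 (adjusted p = 0.647). When arrays were weighted by their fit to the model, both genes were called with all 8 arrays in use (Ptprc 0.89, adjusted p = 0.0224, and Cd52 1.25, adjusted p = 0.0707). Such weights count poorly fitting arrays less, so this fit is not separate from the one without replicate 1 of 3M. It called 842 probes higher and 662 lower, against 491 and 319 in the reported fit.

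**Figure D3:**
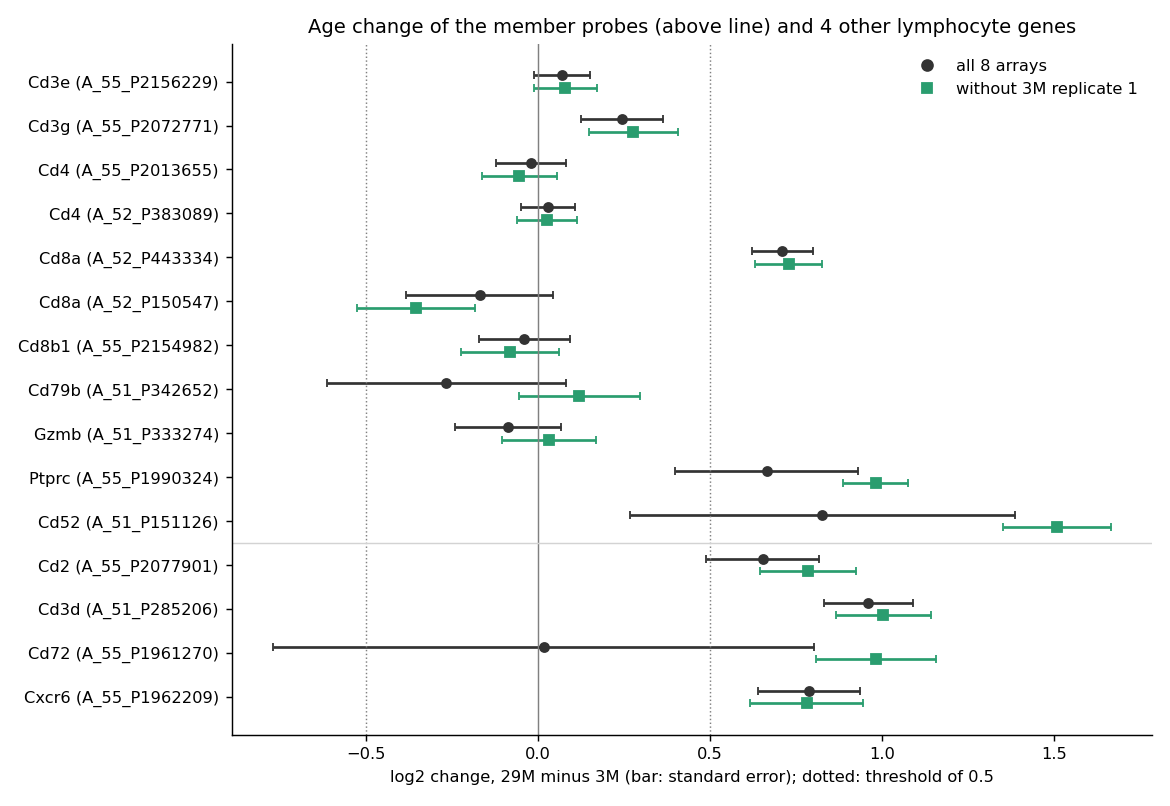
Log2 change between 29M and 3M (horizontal axis, with the standard error as a bar) for the 11 member probes and 4 other lymphocyte genes, with all 8 arrays (circles) and without replicate 1 of 3M (squares). Cd8a was at 0.71 and 0.73, whereas Ptprc went from 0.66 to 0.98, Cd52 from 0.83 to 1.51 and Cd79b from -0.27 to 0.12; Cd72 was added after its values had been seen.

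The members thus showed different patterns over the arrays. Ptprc and Cd52 correlated at r = 0.96 over the 8 arrays (0.99 after each group's mean was taken off). Cd79b correlated with them within groups (0.94 with Ptprc and 0.93 with Cd52) but less over all arrays (0.54 and 0.71). All these values include replicate 1 of 3M, and their dependence on it was not tested. Against the average of replicates 2 to 4 of 3M, its log2 difference was 2.72 for Cd52, 1.27 for Ptprc and 1.55 for Cd79b. Replicates 2 to 4 themselves lay between -0.26 and 0.24. In 29M, replicates 2 and 3 were the highest for each of these genes. The lowest was replicate 1 for Cd79b and replicate 4 for Ptprc and Cd52. Cd8a and Cd52 correlated at 0.50 over all arrays and 0.34 within groups, and Cd8a and Ptprc at 0.69 and 0.35. Cd8a and Cd3e correlated at 0.62 over all arrays and 0.94 within groups. With Cd4, Cd8b1, Cd79b and Gzmb the value of Cd8a over all arrays was negative. These are descriptions over 8 arrays that share the normalization and, in part, the age difference. On 4 of the 11 probes replicate 1 of 3M was the highest of all arrays, against 17.0% of all probes.

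The genes most like each member over the 8 arrays, among 15906 genes above background on all of them, differed in the same way. For Cd52 they were Fyb (r = 0.992), Irak3 (0.992) and Aif1 (0.990), the last of which codes for the microglial marker IBA1. For Ptprc they were Cd300c2 (0.993), Bcl2a1d (0.991) and Igsf6 (0.986). For Cd8a they were Fah (0.990), Mrps35 (0.985) and Rcbtb2 (0.984), of which the first codes for an enzyme of tyrosine breakdown and the second for a mitochondrial ribosomal protein. After group means were taken off, the values for Cd8a were 0.884, 0.790 and 0.957. Those for Cd52 and Ptprc were between 0.988 and 0.994. Replicate 1 of 3M lay 2.72 (Cd52), 1.27 (Ptprc) and 1.93 (Fyb) above the average of replicates 2 to 4 in log2. A single array so far apart can set a high r by itself, and r without it was not computed. The genes were also picked for the highest r among 15906. The contrast with Cd8a thus cannot show closer co-variation for Cd52 and Ptprc. Cd79b was most like Tgds (0.987), Tbx21 (0.974) and 2610301B20Rik (0.965). For the remaining members the highest values were those of Plod3 for Cd4 (0.966), 1700067K01Rik for Cd8b1 (0.956), Tex261 for Gzmb (0.933) and Acp7 for Cd3e (0.922).

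Outside the members, 71 further lymphocyte genes of 4 lists were on the array, of which 3 were called higher (Cd3d, Cxcr6 and Cd2) and 0 lower, with a median log2 change of 0.06. The share called over the whole array was 1.84% higher and 0.892% lower. At an unadjusted p under 0.05, 10 of the 71 were higher and 4 lower. By role, 2 of 19 genes of the T cell receptor and its proximal signalling rose, 1 of 19 genes of T cell state and homing, 0 of 16 cytotoxic and natural killer genes (3 higher and 2 lower at an unadjusted p under 0.05) and 0 of 17 B cell and plasma cell genes (1 higher and 1 lower). Their median log2 changes were 0.06, 0.11, -0.11 and 0.13. Without replicate 1 of 3M, 9 of the 71 were called higher and 1 lower, again against 3.03% and 1.75% of genes. The 7 that came in, named after their values were seen, were Fyb, Cxcr3, Il7r, Ccl5, Nkg7 and Cd72, each higher, and Cd22, lower.

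Cxcr6 codes for a chemokine receptor of T cells that stay in tissue. It read 6.51, 6.64, 6.49 and 6.49 in 3M and 7.39, 7.69, 7.29 and 6.91 in 29M, with no overlap. It rose by 0.79 (SE 0.15, adjusted p = 0.0375), or 1.73-fold, and lost its call in 1 of 19 alternatives, without replicate 1 of 29M (adjusted p = 0.116). Its second probe changed by 0.63 (adjusted p = 0.102), also with no overlap. Cd2, an adhesion molecule of T and natural killer cells, read 6.94, 6.46, 6.41 and 6.36 in 3M and 7.22, 7.48, 7.24 and 6.84 in 29M, and it rose by 0.65 (SE 0.16, adjusted p = 0.0918). Its second probe, printed in 10 spots, was above background on 2 arrays of 3M and 3 of 29M and changed by 0.20 (adjusted p = 0.322). On the called probe replicate 1 of 3M was above the lowest 29M array, and the call of Cd2 was lost in 12 of 19 alternatives (adjusted p up to 0.222).

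Genes of the cytotoxic programme did not pass the test. Ccl5, a chemokine made by memory T cells among others, read 9.68, 9.10, 8.58 and 8.50 in 3M and 9.76, 9.93, 9.93 and 9.51 in 29M. The log2 change was 0.82 (SE 0.24, adjusted p = 0.138) with all arrays and 1.05 (adjusted p = 0.0134) without replicate 1 of 3M, which was again the highest of its group. Nkg7, a protein of cytotoxic granules, gave a log2 change of -0.03 (adjusted p = 0.918) from the brighter probe and 0.77 (adjusted p = 0.127) from the second, so these disagree. Prf1, which codes for perforin, changed by -0.04 (adjusted p = 0.909). Gzma, granzyme A, was lower on all 29M arrays (8.52 to 8.93) than on all 3M arrays (9.04 to 9.60) but did not pass the test, with a log2 change of -0.44 (adjusted p = 0.168).

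**Figure D4:**
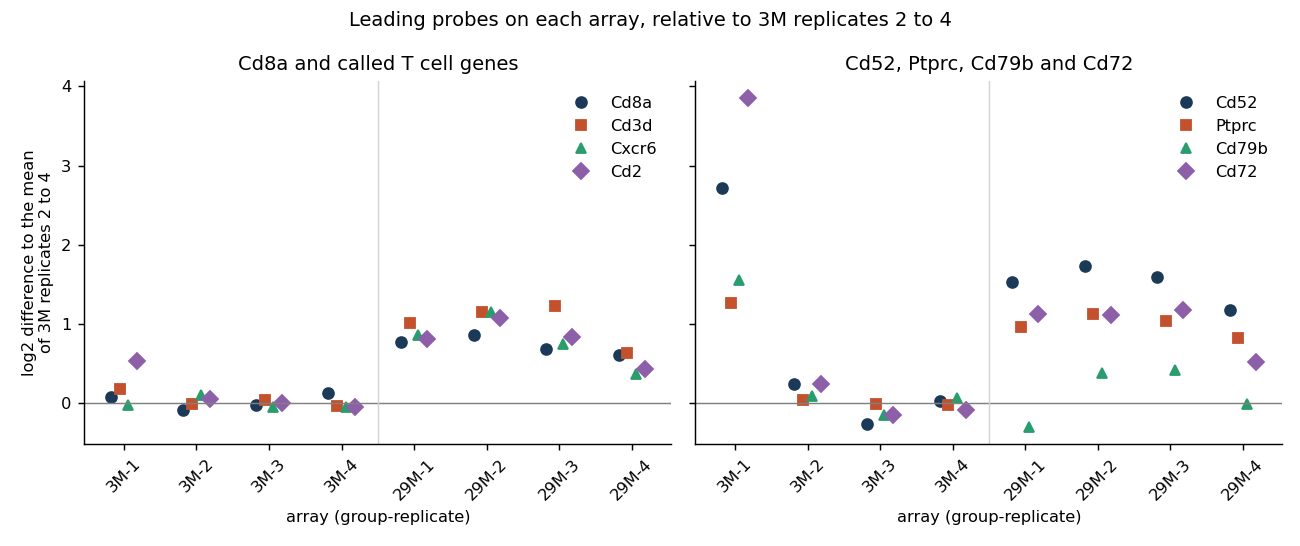
Log2 difference of each array to the mean of replicates 2 to 4 of 3M, for Cd8a and the 3 called T cell genes (left) and for Cd52, Ptprc, Cd79b and Cd72 (right), with 1 point per array and gene. On the left only the 29M arrays were clearly above 0 except for Cd2, and on the right replicate 1 of 3M was the highest for every gene shown, at 2.72 for Cd52, 1.27 for Ptprc, 1.55 for Cd79b and 3.86 for Cd72.

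Markers of other cells were read beside these results, and their part in the changes was not tested. Of 19 microglia genes 5 were called higher (C1qa 0.86, Ctss 0.83, Tyrobp 0.80, Trem2 0.65 and C1qb 0.56) and 0 lower, with a median log2 change of 0.36. Over all genes 1.84% were called higher and 0.892% lower with all arrays, which is the share to set beside each list below. At an unadjusted p under 0.05 in limma, 14 of the 19 were higher and 0 lower, with no array-wide share counted at that p. The calls of C1qa and Ctss held in all 19 alternatives, while that of Tyrobp was lost in 2, that of Trem2 in 6 and that of C1qb in 7. The log2 of their summed intensity was 18.71 to 18.84 in 3M and 18.96 to 19.04 in 29M. Such a sum, here and below, mostly follows the genes with the brightest probes. The list held 20 genes, of which 19 had a matched probe. All 19 were above background on all 4 arrays of at least 1 group, so no measured marker was absent. P2ry12, Tmem119 and Cx3cr1, markers of resting microglia, changed by 0.36 (adjusted p = 0.250), 0.37 (adjusted p = 0.183) and 0.30 (adjusted p = 0.355), and Itgam by -0.05 (adjusted p = 0.811). On replicate 1 of 3M the microglia sum was 18.71, the lowest of all 8 arrays, while Aif1 was 13.39 there against 11.99 to 12.31 on the other 3M arrays and 12.55 to 12.94 in 29M. By gene, the list was higher on that array by a median of 0.19 (log2) against the other 3M arrays, where all genes had a median of 0.03, so the sum and the median differ in direction. Aif1 was higher there by 1.21, Cx3cr1 by 0.50, and C1qa and Ctss by 0.26 each.

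Of 18 further genes common to leukocytes, 1 was called higher with all arrays (Cd37, on 1 of 2 probes, 0.53, adjusted p = 0.0743). Without replicate 1 of 3M 6 were called higher, where 3.03% of all genes were in that fit. The call of Cd37 was lost in 11 of 19 alternatives, that one included. At an unadjusted p under 0.05, 5 of the 18 were higher and 0 lower. The log2 sum of that list was 17.04 to 17.21 in 3M, with replicate 1 the highest, and 17.00 to 17.16 in 29M. Within it Coro1a (-0.05), Laptm5 (0.04), Cd53 (0.31) and Itgal (0.11, of the lymphocyte lists) were not called. Of 11 genes of border macrophages and monocytes 2 were called higher (Cd209f 1.12, adjusted p = 0.0806, and Cbr2 0.51, adjusted p = 0.0494), each call being lost in 11 of 19 alternatives, while Mrc1 changed by 0.10 (adjusted p = 0.823). The log2 sum was 14.09 to 14.58 in 3M, again with replicate 1 the highest, and 14.39 to 15.00 in 29M.

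Red blood cell, neutrophil, choroid plexus and meningeal lists gave no calls in limma. Of 7 red blood cell genes 0 were called, with a log2 sum of 18.77 to 19.28 in 3M (19.28 on replicate 1) and 18.61 to 19.19 in 29M, and Hbb-bt changed by -0.34 (adjusted p = 0.531). Of 9 neutrophil genes 0 were called, and S100a8 changed by 0.88 (adjusted p = 0.202). By sign 8 of the 9 were higher in 29M and 1 lower, with a median log2 change of 0.39. Their sum was nonetheless lower in 29M (17.24 to 17.39) than in 3M (17.40 to 17.48). The 10 choroid plexus genes were not called, with a sum of 18.39 to 18.88 in 3M and 18.52 to 18.85 in 29M, and Ttr changed by -0.01 (adjusted p = 0.973). The sum of the 10 meningeal genes was 18.18 to 18.77 in 3M and 18.31 to 18.63 in 29M. At an unadjusted p under 0.05, 1 red blood cell gene was lower, 2 neutrophil genes and 2 meningeal genes were higher, and 0 choroid plexus genes passed, while 3 endothelial and 4 border macrophage and monocyte genes were higher. Of 10 endothelial genes 1 was called (Vwf 0.59, adjusted p = 0.0320), and that call was lost in 5 of 19 alternatives. The sums of the red blood cell, choroid plexus and meningeal lists overlapped between the groups. Those of the neutrophil list did not, but they moved against the sign of most of its genes.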

How the data were processed

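Cy3-labelled RNA of 8 samples, grouped by their titles, was put on 1-colour Agilent arrays. The deposited scanner files hold intensities on a linear scale, made per the file headers with Agilent Feature Extraction 10.7.3.1, which differs from the version in the study's methods. Median spot intensities were used in place of the mean spot intensities that had been planned. The table of the whole series held mean local background, in 7 of 8 columns that of another sample's array, and was not used as expression. Its columns for replicates 2 and 3 of 3M matched arrays of 29M, and those for replicates 2 and 3 of 29M matched arrays of 3M. The age groups used here rest on the sample under which each scanner file was deposited.

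Control spots were left out, as were 127 to 190 outlier spots on each array. Variance stabilising normalization (an own implementation in R 4.3.3, trimmed quantile 0.9, 7 iterations) gave log2 values, and replicate spots were averaged. A linear model for age was fitted in limma 3.58.1 to each of 39408 probes with at least 3 usable arrays per group (eBayes, Benjamini-Hochberg), with the thresholds of the study's methods. A probe was above background on an array where at least 50% of its spots were flagged so, and a gene was called when any probe was. Values of genes outside the members are those of the probe with the highest mean unless stated. Probes were named by transcript accession through RefSeq (26055 of 39429). The scripts were tested on simulated data. The number of arrays limits the precision.

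Alternatives were other signals and normalizations, spot and probe filters, a floor, slide or replicate number as a block, trend, weights and leaving out each array. Members and lists were chosen with earlier results of these data known. Named by rule were all members, every called gene of the lists, a fixed set of other markers, and the 3 genes most like each member above background on all arrays. 8 listed genes had no matched probe, and 1 gene of the fixed set is not reported here.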

Additional observations from a re-analysis of the deposited data

Results flagged for a closer look

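Arrays far from the others of their group were found in 11 of 87 groups of 4 examined, where chance alone gives about 1 in 20, or 4.35. These groups share arrays, and some of their genes were named because they were called, so the count does not establish an excess. The measure is the gap to the nearest array as a share of the group's range. Replicate 1 of 3M was such an array 5 times, always as the highest: for Ptprc (0.953), Tyrobp (0.862), Cd79b (0.855), Cd2 (0.835) and Cd52 (0.832). Cd72 was not among the genes examined, and it read 11.33 on that array against 7.32 to 7.70 on the other 3M arrays.

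Replicate 3 of 3M was the lowest of its group for Ttr (0.966), Cd3g (0.933) and the brighter probe of Cd37 (0.849), and replicate 2 of 3M was the highest for Cxcr6 (0.861), where it lay at 6.64 against 6.49 to 6.51. In 29M, replicate 4 was the highest for Cd79a (0.861) and the lowest for Itgal (0.829).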

How the results depend on the processing

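Of the 11 member probes, Cd8a (A_52_P443334) was called under all 19 alternatives and Ptprc and Cd52 only with array weights and without replicate 1 of 3M. The number of members called higher was then 3 in each. Leaving out each array in turn gave 1 to 3, and 0 members were called lower in any setting. Among the other lymphocyte genes, array weights gave 6 higher and 1 lower, dropping the minimum change 1 lower (Cd22, at -0.46), and leaving out 1 array 1 to 9 higher (9 without replicate 1 of 3M, 1 without replicate 1 of 29M) and 0 to 1 lower. Small changes that were never called turned sign: Cd3g with a floor (-0.066), Cd4 (A_55_P2013655) with slide as a fixed block (0.022), and Cd4 (A_52_P383089) with processed signals or a floor (-0.018 in both). Over arrays left out in turn, the lowest and highest changes were -0.091 and 0.032 for Cd4 (A_55_P2013655), -0.0093 and 0.057 for Cd4 (A_52_P383089), -0.10 and 0.066 for Cd8b1, -0.45 and 0.12 for Cd79b and -0.21 and 0.031 for Gzmb. The highest values of Cd79b and Gzmb were those without replicate 1 of 3M.

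Deviations of same-numbered arrays correlated at -0.24, 0.21, -0.23 and 0.07, where those of other pairs lay between -0.32 and 0.40. Same-numbered arrays thus did not stand out, but so few values cannot settle whether the samples were paired. With the replicate number as a block 1 member was called higher (Cd8a, 0.71, adjusted p = 0.0679), and over all probes 266 were called higher and 145 lower in place of 491 and 319. Probes called were 825 higher and 639 lower without replicate 1 of 3M, and 842 higher and 662 lower with array weights. Dim probes such as Cd3g, Cd247, Ms4a1 and the second Cd8a probe have no measured level on most arrays, so a change there was not detectable.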
